A study of Mus musculus with 3 samples.

Results

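Heat shock proteins and chaperones were read from 3 libraries of mouse bone marrow cells. The members were all entries whose symbol begins with Hsp or Dnaj, or names a Cct subunit from 2 to 8, a Bag gene from 1 to 6 or an Hsf gene from 1 to 5, leaving out pseudogene symbols with -ps as well as Hspg2 and Hspbap1, which carry the letters but are no chaperones. This gave 93 members among 23282 entries. Of these, 85 had at least 1 read, 74 had at least 30 reads over the 3 libraries and were tested, 11 had fewer reads and 8 had none. The groups below follow the families of heat shock proteins, the compartment in which each protein works, and whether the gene was listed as heat-inducible or constitutive.

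Only the vehicle group was analysed, with 3 libraries, so no value below compares treatments. They came from bone marrow cells, with red blood cells lysed, of male wild type C57BL/6 mice, an inbred strain, aged 6 weeks. The mice received sterile water by oral gavage for 28 days and marrow was taken on day 29, as the control for Asari Radix et Rhizoma, a herbal preparation whose samples were not analysed here. The labels do not state whether each library is a different mouse. Their spread may therefore be technical, and p-values below set that spread against counting noise alone.

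Chaperones bind unfolded stretches of protein and keep them from aggregating. HSP70 proteins do so in cycles of ATP hydrolysis, which J-domain proteins start and nucleotide exchange factors end, while HSP90 acts later on clients such as kinases and receptors, and the ring-shaped chaperonins enclose a protein while it folds. Heat shock factor 1 (HSF1) raises a part of these genes when unfolded protein accumulates in the cytosol, through heat shock elements. The unfolded protein response does the same for chaperones of the endoplasmic reticulum (ER), through ER stress response elements in their promoters. Marrow combines rapid division, haemoglobin synthesis and secretory cells, each of which needs folding capacity.

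Promoters were taken from RefSeq on build GRCm38.p6, as windows of 250 bases before and 50 bases after each annotated start, and 75 of the 93 members had an entry. The ER stress response element was searched as CCAAT, 9 free bases and CCACG, and the heat shock element as GAA, 2 free bases, TTC, 2 free bases and GAA, both on either strand. The first was found in 3 of the 75 members (4%), Hspa5, Hsp90b1 and Dnajc3, against 0.137% of all 27025 genes with a window. The second was found in 4 of the 75 members (5.33%), Hspd1, Hspe1, Hsph1 and Dnajb6, against 0.662% of all genes with a window. Of these, only Hsph1 is on the heat-inducible list used below, and the other members of that list had no match or no window. Hspd1, Hspe1 and Dnajb6 were listed as neither heat-inducible nor constitutive. Only this pattern was searched, so the lack of a match does not show that a promoter lacks heat shock elements. A match describes letters and is not a measured binding site. The sequences below show the 250 bases before the start for the 3 genes with the ER element and for Hspe1, whose window also covers the pair of overlapping heat shock elements that it shares with its divergent neighbour Hspd1. They are given 5′ to 3′ on the gene's strand, with the fixed letters of each match in capitals, at chr2:34771840-34772089 (plus strand) for Hspa5, chr10:86705445-86705694 (minus strand) for Hsp90b1, chr14:118937682-118937931 (plus strand) for Dnajc3 and chr1:55087898-55088147 (plus strand) for Hspe1.
Hspa5: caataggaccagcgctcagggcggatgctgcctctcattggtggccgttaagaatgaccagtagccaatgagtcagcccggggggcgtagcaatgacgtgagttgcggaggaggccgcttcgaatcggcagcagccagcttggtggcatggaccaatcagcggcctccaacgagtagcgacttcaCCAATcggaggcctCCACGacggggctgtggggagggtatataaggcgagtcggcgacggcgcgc
Hsp90b1: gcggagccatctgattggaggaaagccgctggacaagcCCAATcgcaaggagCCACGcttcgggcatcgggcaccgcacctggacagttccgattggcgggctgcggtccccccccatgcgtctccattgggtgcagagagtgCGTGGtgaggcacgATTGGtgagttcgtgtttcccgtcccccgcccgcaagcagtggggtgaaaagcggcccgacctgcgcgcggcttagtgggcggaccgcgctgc
Dnajc3: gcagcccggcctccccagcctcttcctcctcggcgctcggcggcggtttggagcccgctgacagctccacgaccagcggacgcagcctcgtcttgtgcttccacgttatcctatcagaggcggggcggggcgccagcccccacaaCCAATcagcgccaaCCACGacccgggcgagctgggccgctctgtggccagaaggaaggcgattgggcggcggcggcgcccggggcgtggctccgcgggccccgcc
Hspe1: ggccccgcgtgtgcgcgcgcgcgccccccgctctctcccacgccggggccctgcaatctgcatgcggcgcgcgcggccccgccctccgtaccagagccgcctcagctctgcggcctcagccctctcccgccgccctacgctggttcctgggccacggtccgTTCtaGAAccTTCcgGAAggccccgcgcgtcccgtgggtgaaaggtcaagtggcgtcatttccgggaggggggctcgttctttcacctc
In Hspa5 the element lay 65 bases before the RefSeq start and in Dnajc3 105 bases before it. Gene positions printed below are from GENCODE, whose Hspa5 begins before that RefSeq start, at 34771970. The element of Hspa5 and the heat shock elements shared by Hspd1 and Hspe1 lie inside the GENCODE spans of Hspa5 and Hspd1. Hsp90b1 held 2 elements, on opposite strands, that began 212 and 107 bases before the start. The overlapping heat shock elements began 89 and 84 bases before the start of Hspe1. In Hsph1, where the match lay after the start, and in Dnajb6 the matched letters were TTCTGGAAAGTTC and GAATCTTCCGGAA.

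Reads assigned to genes numbered 9168435 in replicate 1, 8104828 in replicate 2 and 9137125 in replicate 3. Levels are given as CPM, reads per 1000000 gene-assigned reads, and compared between genes without a length correction because the libraries were primed at the poly(A) tail and give about 1 fragment per transcript. A count of 0 allows up to 0.327, 0.370 and 0.328 CPM (3 reads). Intervals and this limit cover counting error only. How reads that match more than 1 gene or copy were handled is not stated, which also limits comparisons between genes. The median gene stood 0.10 log2 units above the mean of the 3 libraries in replicate 1, at -0.03 in replicate 2 and at -0.06 in replicate 3, and within 0.01 of it with trimmed-mean (TMM) scaling, so that values which depend on the scaling are given with both. Neutrophil markers held 8.54%, 6.62% and 8.79% of reads, erythroid markers 6.65%, 9.88% and 9.997%, B cell markers 0.0516%, 0.0548% and 0.0434% and stromal markers 0.0270%, 0.0224% and 0.0178% in replicates 1, 2 and 3. None of these markers was at 0.

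The 93 members together took up 0.824%, 0.739% and 0.690% of reads (replicates 1, 2 and 3, exact 95% Clopper-Pearson intervals 0.818 to 0.830, 0.733 to 0.745 and 0.684 to 0.695), a mean of 0.751% ± 0.0680 (SD, n = 3). Replicate 1 was highest and replicate 3 lowest, also with TMM scaling, where the levels were 0.773%, 0.752% and 0.722%. The reads were concentrated in few genes. Hsp90ab1, Hspa5, Hsp90aa1 and Hsp90b1 made up 51.1% of the members' reads, and Hsp90ab1 alone 23.0%. A mean of at least 100 CPM was reached by 15 members and of at least 20 CPM by 39, while 19 members stayed under 1 CPM. HSP90 genes gave 39.8% ± 0.896 of the members' reads (SD, n = 3), HSP70 genes 17.2% ± 1.36, J-domain genes of class C 16.1% ± 0.683 and CCT subunits 11.2% ± 0.136.

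**Figure D1:**
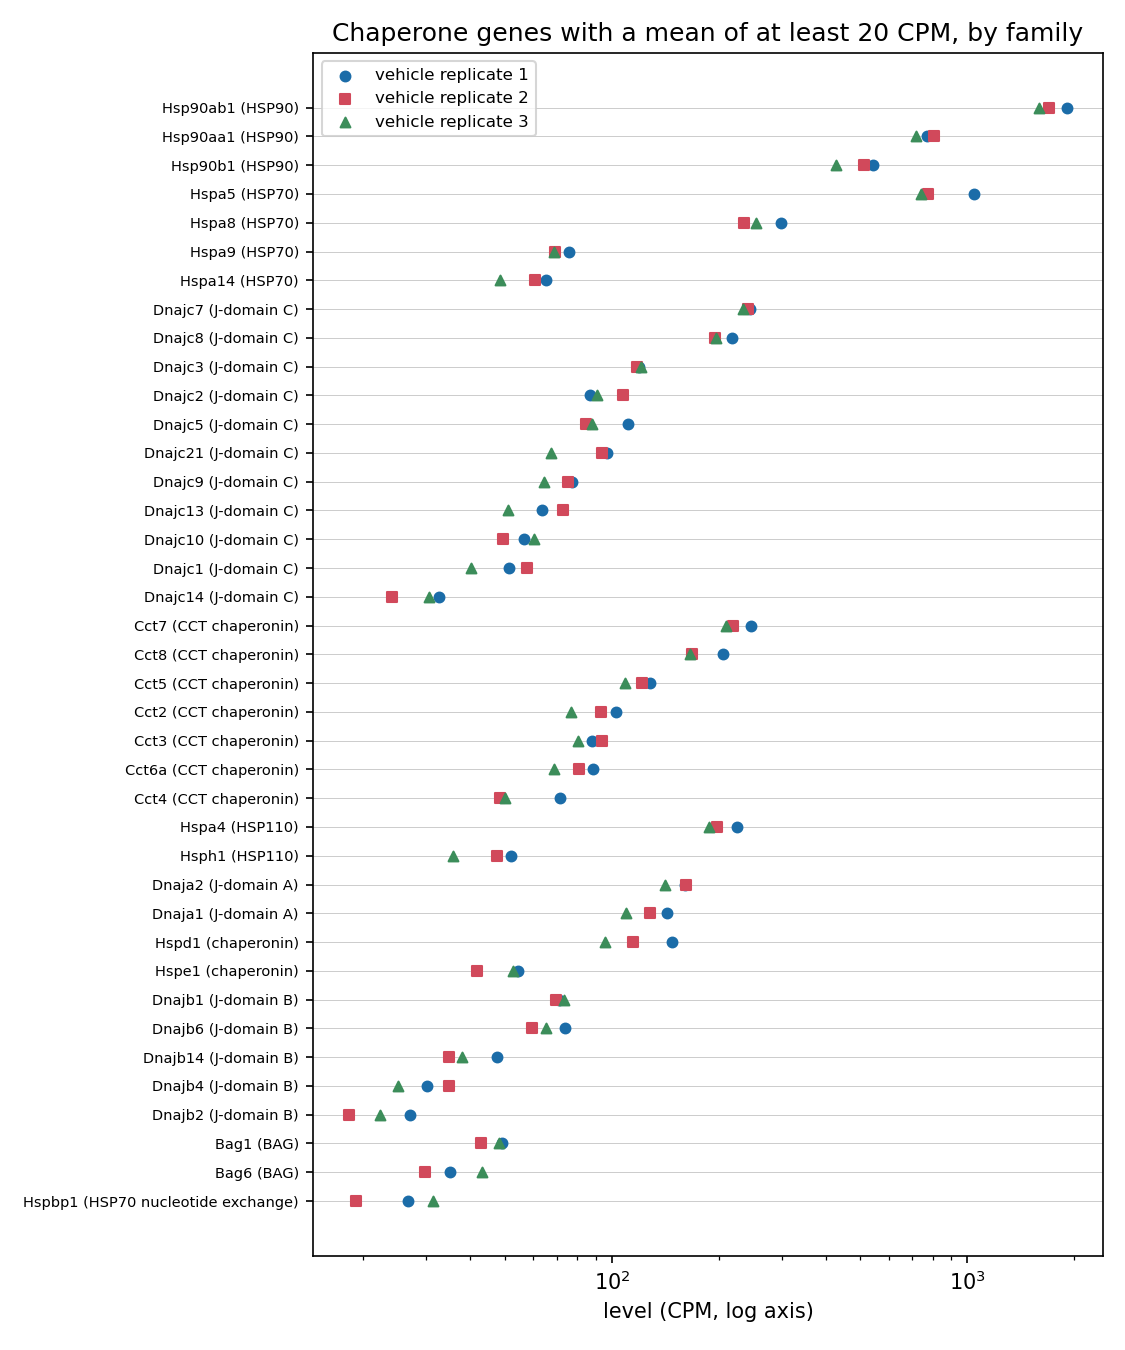
Levels of the 39 members with a mean of at least 20 CPM, grouped by family, on a log axis of CPM; each symbol is 1 vehicle library. Hsp90ab1 stands highest at 1586 to 1901 CPM, and the libraries lie close together beside the differences between genes.

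The HSP90 genes were the most abundant family. Hsp90ab1 (GRCm38 chromosome 17, 45567775 to 45573271, minus strand), which encodes the constitutive cytosolic HSP90 beta, had 1901, 1691 and 1586 CPM in replicates 1, 2 and 3 and ranked 20 among all entries. Hsp90aa1, encoding the heat-inducible HSP90 alpha, had 769, 807 and 716 CPM. Hsp90b1, which encodes the ER form GRP94, had 542, 512 and 427 CPM. Replicate 3 was lowest for all 3 genes, but with TMM scaling Hsp90aa1 was lowest in replicate 1, at 722 CPM against 822 and 749 CPM in replicates 2 and 3, and Hsp90b1 was highest in replicate 2 (508, 521 and 446 CPM).

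Among HSP70 genes the ER form was the most abundant. Hspa5 (chromosome 2, 34771970 to 34777547, plus strand), encoding BiP, the main HSP70 of the ER lumen, had 1045, 775 and 739 CPM in replicates 1, 2 and 3. Hspa8, encoding the constitutive cytosolic HSC70, had 299, 236 and 254 CPM, and the mitochondrial Hspa9 75.9, 69.1 and 68.6 CPM. The library ranges of these 3 genes do not overlap. Within a library Hspa5 stood 1.68 ± 0.14 log2 units above Hspa8 (SD, n = 3), a 3.21-fold difference, and Hspa9 at -1.87 ± 0.10 log2 units from Hspa8. Each ratio had the same sign in 3 of 3 libraries. An exact two-sided sign-flip permutation gave p = 0.25, the lowest value possible with 3 libraries, for these and all ratios below but that of Hspa1a to Hspa1b, for which p was 1. For HSP90 the order was the other way, since the ER gene Hsp90b1 stood at -1.81 ± 0.08 log2 units from the cytosolic Hsp90ab1. Hspa14, whose protein works at the ribosome, had 65.3, 60.8 and 48.6 CPM, the microsomal Hspa13 15.9, 17.5 and 16.0 CPM, and Hspa2, best known from spermatocytes, 18.8, 18.9 and 18.4 CPM.

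Genes listed as heat-inducible stood below the partners listed as constitutive in each of the 6 pairs compared, by very different amounts. This holds for these partners, chosen with earlier results of these data known, and Hspa8 served for both Hspa1b and Hspa1a. Relatives not listed as constitutive gave mixed orders. By mean level, Hsph1 stood above Hspa4l and Dnajb1 above every other Dnajb gene, though Dnajb6 was higher in replicate 1. Bag3 stood above Bag2 but below Bag4, Bag5 and Bag6, and Hspa1b and Hspa1a below Hspa13 and Hspa14. The stress-inducible HSP70 genes Hspa1b and Hspa1a (chromosome 17, 34956436 to 34959238 and 34969190 to 34972156, both minus strand) were low beside Hspa8. Hspa1b had 9.38, 5.43 and 5.25 CPM and Hspa1a 8.07, 4.07 and 7.99 CPM in replicates 1, 2 and 3, from 33 to 86 reads per library, against 236 to 299 CPM of Hspa8. The log2 ratio to Hspa8 was -5.24 ± 0.28 for Hspa1b and -5.24 ± 0.40 for Hspa1a (SD, n = 3), and -4.28 ± 0.26 for their sum, which stood 19.4-fold lower than Hspa8. These genes share 58.8% of the 50-base windows of the Hspa1a transcript. In the last 500 bases, from which the libraries were primed, they share 0 of the 451 windows. The split between them is uncertain for reads from the shared part, since the handling of reads that match both genes is not stated. The log2 ratio of Hspa1a to Hspa1b was -0.01 ± 0.50 (SD, n = 3).

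The other pairs lay closer together. Hsph1, a heat-inducible nucleotide exchange factor of the HSP110 family, had 51.9, 47.5 and 35.7 CPM, and its constitutive relative Hspa4 had 224, 197 and 188 CPM, a log2 ratio of -2.17 ± 0.18 (SD, n = 3). Bag3, which links HSP70 to selective autophagy, had 6.44, 9.62 and 4.82 CPM, and Bag1, a constitutive exchange factor, 49.1, 42.9 and 48.2 CPM, a log2 ratio of -2.71 ± 0.56. Bag3 ranged over 2.0-fold between libraries, from 44 to 78 reads, and Bag1 over 1.14-fold, from 348 to 450 reads. Counting noise is larger for Bag3, so the ranges are not directly comparable. Hsp90aa1 stood at -1.17 ± 0.12 log2 units from Hsp90ab1. The smallest gap was in the J-domain pair, a log2 ratio of -0.82 ± 0.22. Dnajb1, listed as heat-inducible, had 70.8, 69.7 and 73.3 CPM and Dnaja1, listed as constitutive, 143, 128 and 110 CPM. Hspb1, encoding the heat-inducible small heat shock protein HSP27 in human nomenclature, had 10, 14 and 9 reads.

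As lists, the 7 heat-inducible members summed to 917, 945 and 844 CPM and the 11 constitutive cytosolic members to 3429, 3094 and 2944 CPM in replicates 1, 2 and 3. The log2 ratio was -1.80 ± 0.10 (SD, n = 3), so the heat-inducible list stood 3.49-fold lower. Hsp90aa1 made up 84.7% of the heat-inducible list, and without the HSP90 pair the log2 ratio was -3.37 ± 0.03. The sum of the heat-inducible list was highest in replicate 2 with library totals and with TMM scaling (861, 963 and 883 CPM). Its members did not share this order. With library totals, Hsp90aa1, Bag3 and Hspb1 were highest in replicate 2, Hspa1a, Hspa1b and Hsph1 in replicate 1 and Dnajb1 in replicate 3. Hspa1a was lowest in replicate 2. Without Hsp90aa1, an alternative chosen after seeing the data, the other 6 members summed to 148, 138 and 128 CPM, highest in replicate 1. With TMM scaling the sums lay close together at 139, 141 and 134 CPM, and no interval was computed for them. Immediate early genes, induced quickly by many stimuli, held 0.165%, 0.182% and 0.144% of reads (0.155%, 0.185% and 0.151% with TMM scaling) and were highest in replicate 2. Their part in the heat-inducible levels was not tested.

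**Figure D2:**
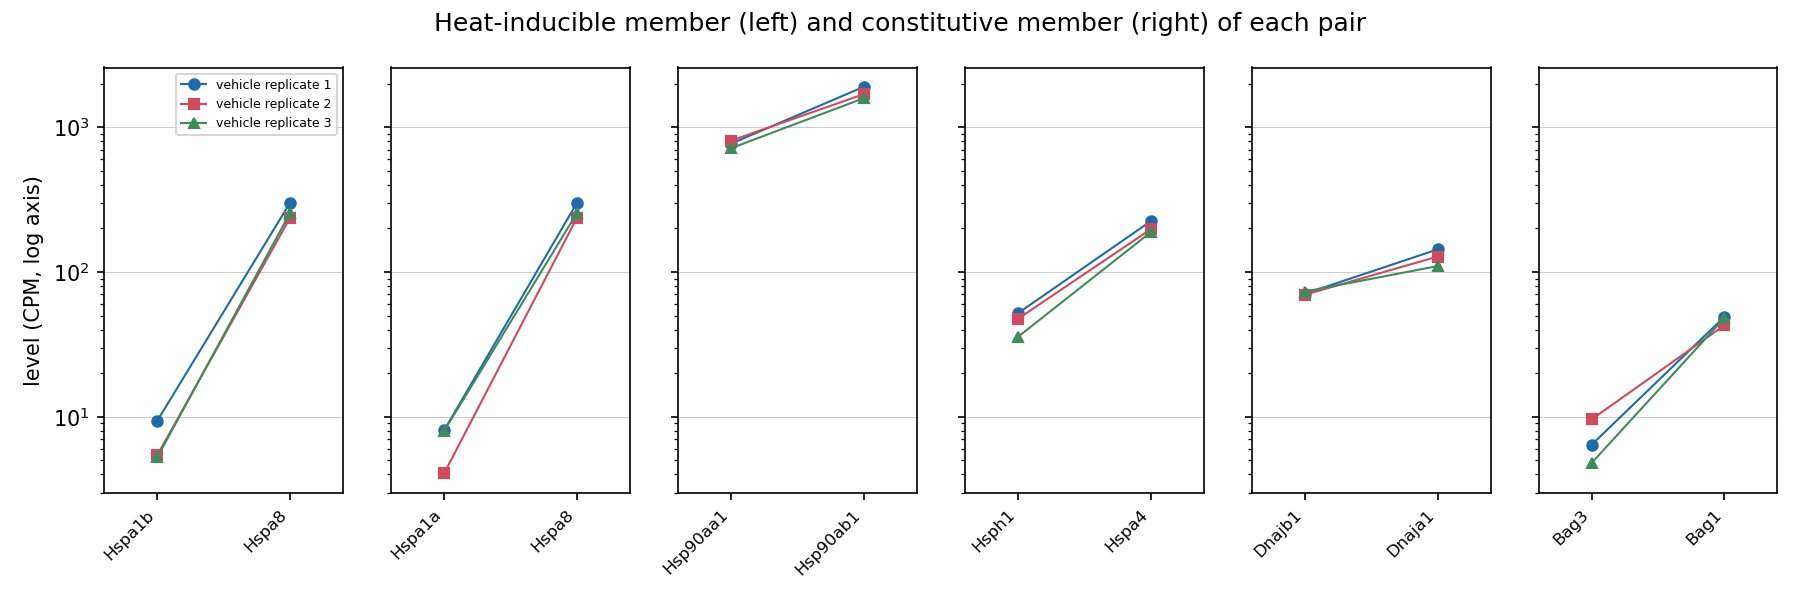
Levels (CPM, log axis) of the gene listed as heat-inducible, left, and the partner listed as constitutive, right, in 6 pairs. Each line joins the 2 genes within 1 vehicle library. Every line runs upward from left to right, most steeply for Hspa1b and Hspa1a and least for Dnajb1.

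By compartment, proteins of the cytosol and nucleus accounted for most chaperone reads. The 62 cytosolic and nuclear members held 69.5%, 71.6% and 71.7% of the members' reads in replicates 1, 2 and 3, the 14 ER members 24.0%, 22.3% and 22.04%, and the 9 mitochondrial members 4.13%, 3.77% and 3.995%. The other 8 members, such as the vesicle protein gene Dnajc5, were not assigned. The ER share was highest in replicate 1, where its exact 95% interval of 23.7 to 24.3 lay above those of replicates 2 (22.01 to 22.7) and 3 (21.7 to 22.4). Hspa5 made up 49.8% of the ER reads. Without it, an alternative chosen after seeing the data, the other 13 ER members held 12.99%, 13.2% and 12.7% of the remaining members' reads. These shares lay close together, and no interval was computed for them. The order by summed reads does not hold for the median member. It had 23.1 CPM in the ER, 13.9 CPM in the mitochondrion and 13.3 CPM in the cytosol and nucleus, where 5 of the 62 members had 0 reads. All 9 testis-enriched and all 4 muscle-enriched members, most of them low, are among these 62. A median without them was not computed, so the medians do not compare like sets of genes.

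**Figure D3:**
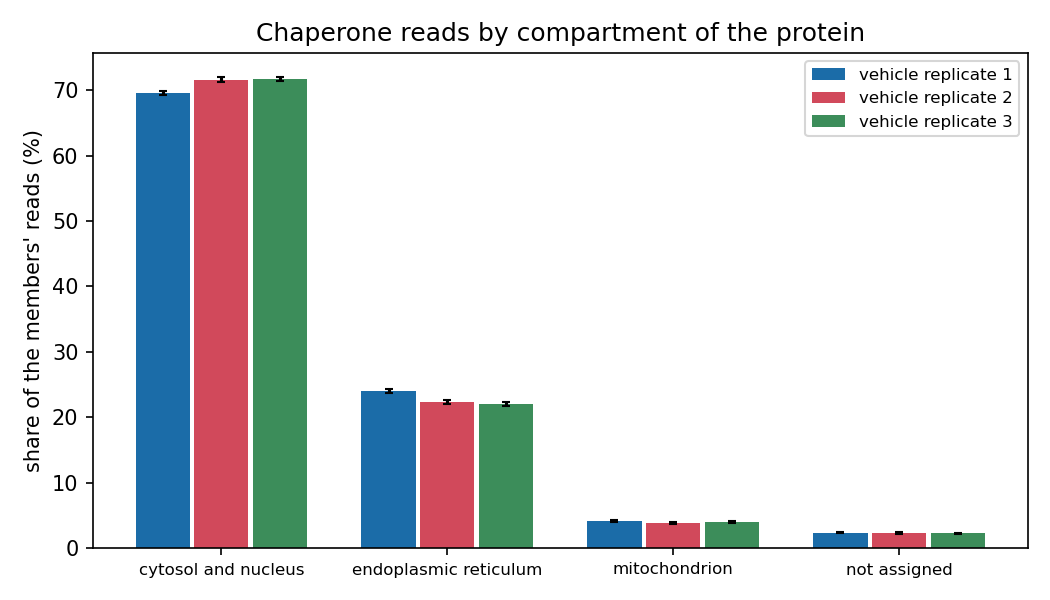
Share of the members' reads (%) by compartment of the encoded protein in each vehicle library; bars start at 0 and error bars are exact 95% Clopper-Pearson intervals for counting error. The cytosol and nucleus take 71.0% on average, the ER 22.8% and the mitochondrion 3.96%.

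In the ER, known targets of the unfolded protein response differed widely in level. Next to Hspa5 and Hsp90b1, Dnajc3, encoding a J-domain cochaperone of BiP, had 119, 117 and 121 CPM, and Dnajc10, encoding an ER reductase with a J domain, 56.7, 49.4 and 60.3 CPM. Dnajb11, another partner of BiP, had 21.4, 15.9 and 14.2 CPM, and Dnajb9, a J-domain gene strongly induced by ER stress, 5.56, 7.90 and 4.27 CPM. The highest library of Dnajb9 therefore lay below the lowest of Dnajb11. Of the genes whose promoters with the ER element are printed above, Hspa5, Hsp90b1 and Dnajc3 had highest-to-lowest library ratios of 1.42, 1.27 and 1.03 with library totals and 1.27, 1.17 and 1.13 with TMM scaling. Of the J-domain proteins anchored in the ER membrane, Dnajc1 had 51.5, 57.9 and 40.1 CPM, Dnajb14 47.4, 34.9 and 38.0 CPM and Dnajc14 32.7, 24.1 and 30.5 CPM.

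In mitochondria, Hspd1 and Hspe1, which encode the chaperonin HSP60 and its lid HSP10 from opposite strands of chromosome 1, did not keep a fixed ratio. Hspd1 (55077835 to 55088243, minus strand) had 148, 115 and 95.4 CPM and Hspe1 (55088132 to 55091307, plus strand) 54.3, 41.8 and 52.9 CPM in replicates 1, 2 and 3. The log2 ratio of Hspd1 to Hspe1 was 1.43, 1.44 and 0.85, lowest in replicate 3. Hspd1 was lowest in replicate 3 and Hspe1 in replicate 2, also with TMM scaling. Without replicate 2, Hspe1 was not called (adjusted p = 0.780, exact binomial test). The J-domain genes of this compartment were low. Those of the import motor, Dnajc19 and Dnajc15, averaged 14.1 ± 2.41 and 13.9 ± 2.98 CPM (SD, n = 3), Dnajc11 13.03 ± 0.948 CPM and Dnaja3, a partner of mitochondrial HSP70, 6.82 ± 2.53 CPM.

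The cytosolic chaperonin CCT is a double ring with each subunit in equal number, and folds actin and tubulin. Its transcripts were not equal. Cct7 was highest at 246, 219 and 209 CPM in replicates 1, 2 and 3 and Cct4 lowest at 71.5, 48.5 and 50.02 CPM. Within a library Cct7 stood 1.999 ± 0.200 log2 units above Cct4 (SD, n = 3), a 3.998-fold difference. Cct8 averaged 180 ± 22.1 CPM, Cct5 119 ± 9.81, Cct2 90.8 ± 13.2, Cct3 87.3 ± 6.67 and Cct6a 79.3 ± 9.76 CPM, and the last 3 overlap in their library ranges. Tcp1, the gene of the remaining subunit, which the symbol rule does not take, had 118, 97.1 and 91.5 CPM. The summed CCT members had 930, 825 and 760 CPM, and their share of the members' reads varied by only 0.136 percentage points (SD, n = 3) around 11.2%. The testis forms Cct6b and Cct8l1 had 8 and 0 reads in all.

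**Figure D4:**
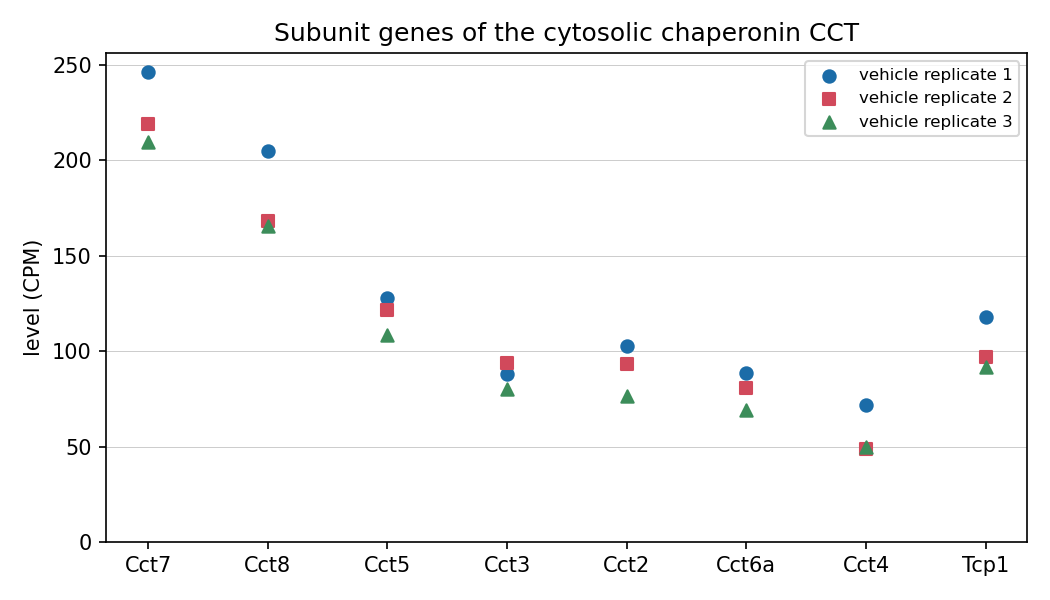
Levels (CPM, axis from 0) of the subunit genes of CCT and of Tcp1; each symbol is 1 vehicle library. Cct7 lies between 209 and 246 CPM and Cct4 between 48.5 and 71.5 CPM.

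Among cytosolic J-domain genes, Dnajc7, whose protein hands clients between HSP70 and HSP90, was the most abundant and among the steadiest, at 244, 241 and 234 CPM in replicates 1, 2 and 3. Dnajc8, associated with splicing, had 217, 195 and 196 CPM, and Dnaja2, a general HSP70 partner, 160, 161 and 141 CPM. The ribosome-bound Dnajc2 had 86.6, 107 and 90.9 CPM and Dnajc21, which matures the large ribosomal subunit and is a bone marrow failure gene in humans, 96.6, 93.5 and 67.3 CPM. Dnajc2 was highest in replicate 2, whereas Dnajc21 was lowest in replicate 3. The histone chaperone gene Dnajc9 averaged 72.2 ± 6.98 CPM (SD, n = 3), the endosomal Dnajc13 62.5 ± 11.0, the vesicle protein gene Dnajc5 94.4 ± 14.2, and Dnajb6, Dnajb4 and Dnajb2 66.3 ± 7.23, 30.03 ± 4.98 and 22.5 ± 4.40 CPM. Dnajb6 is known to hold back aggregation.

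Of the factors that release HSP70 clients beside those above, Hspbp1 had 26.7, 19.1 and 31.4 CPM. Bag6, which protects tail-anchored membrane proteins, had 35.01, 29.7 and 43.1 CPM, and both were lowest in replicate 2 and highest in replicate 3. Bag4 had 16.6, 13.6 and 16.1 CPM, Bag5 9.60, 13.8 and 8.21 CPM, and Bag2, an inhibitor of the ubiquitin ligase CHIP, 25, 5 and 22 reads. The transcription factor genes were low. Hsf1, the main heat shock factor, had 5.24, 4.20 and 5.91 CPM and Hsf2 15.4, 9.75 and 8.97 CPM, so that in each library Hsf2 stood above Hsf1. Hsf3 had 10 reads in all, Hsf4 3 and the testis gene Hsf5 2.

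Genes known mainly from muscle or testis were mostly low. Of the 9 members listed as testis-enriched 3 had 0 reads, and of the 4 listed as muscle-enriched 2 had. Hspb2, Hspb3, Hspb9, Dnajb8, Cct8l1, Dnajc22, Dnajc5b and Dnajc5g had 0 reads in all 3 libraries. Hspb7 had 1 read and Hspb8 4. Above these stood the testis-enriched Hspa2, Dnajb3 and Dnajb13, with 493, 119 and 86 reads over the 3 libraries, and the muscle-enriched Hspb6, with 36, 59 and 88 reads in replicates 1, 2 and 3. The 3 skeletal muscle markers together held 0.000665%, 0.000617% and 0.000525% of reads. Their part in the Hspb6 level was not tested. Hspb11, which carries the name but encodes an intraflagellar transport protein, had 15, 45 and 23 reads. The testis gene Dnajb3 had 38, 17 and 64 reads and lies within the Ugt1a locus, where 7 other entries of the files overlap it. Without a stated strand setting its reads cannot be assigned with certainty, and 24 of the 93 members overlap at least 1 other entry.

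Between the libraries, 54 of the 74 tested members differed beyond counting noise (each library set against the other two by an exact two-sided binomial test, Benjamini-Hochberg adjusted over all tested genes), 73.0% against 56.5% of all 11833 tested entries. Members had more reads (median 731 against 444 over the 3 libraries), and such calls depend on depth. A range of at least 1.5-fold with a call was met by 20 members (27.0%) against 28.2% of all entries, and the median coefficient of variation (CV) was 17.0% in members against 17.1% in all tested entries. With TMM scaling 45 members (60.8%) were called against 52.0% of all entries. Without replicate 1 the calls numbered 36 (51.4% of members tested, against 34.8% of all entries), without replicate 2 35 (49.3% against 39.0%) and without replicate 3 32 (45.7% against 38.5%). Replicate 1 was the highest library in 33 called members (44.6%, against 31.2% of all entries), and in 17 with TMM scaling (23.0% against 16.6%). Replicate 3 was the lowest in 30 (40.5% against 26.2%), and in 21 with TMM scaling (28.4% against 16.6%). Replicate 1 was lowest in 6 called members (8.11% against 8.82%) and with TMM scaling in 8 (10.8% against 17.3%). Replicate 2 was highest in 13 (17.6% against 14.8%) and lowest in 18 (24.3% against 21.4%), and with TMM scaling in 16 each (21.6%, against 17.7% and 18.1%). Replicate 3 was highest in 8 (10.8% against 10.5%), and with TMM scaling in 12 (16.2% against 17.6%).

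Across every scaling, read minimum, test and library left out, 8 members kept their call (10.8% of those tested, against 7.46% of all tested entries), namely Hsp90ab1, Hspa5, Hsp90aa1, Hsp90b1, Hspa8, Dnaja1, Hspd1 and Dnajc13. Hspa5 had the smallest adjusted p, 7.61e-123 (exact binomial test), which was 4.19e-61 with TMM scaling and 0.0219 without replicate 1, the library in which it was highest. Hspd1 had an adjusted p of 2.17e-19, and 0.000737 without replicate 1. Hsp90ab1 had 1.18e-51, and 1.33e-06 without replicate 1. For Hsp90b1 the adjusted p was 5.42e-27, and 0.0219 without replicate 3. Hspa8 was lowest in replicate 2 rather than in replicate 3, and its adjusted p of 9.08e-14 was 0.0444 without replicate 1. Dnajc13 was highest in replicate 2, at 63.5, 73.0 and 51.1 CPM in replicates 1, 2 and 3 (exact binomial test, adjusted p = 2.44e-06, and 0.0440 without replicate 3). Erythroid markers were lowest and stromal markers highest in replicate 1. Hspa5, Hspd1, Hsp90ab1, Hspa8 and Dnaja1 were highest there too, with library totals and with TMM scaling. The part of these cells was not tested. In bulk marrow fewer cells of a type and less RNA per cell cannot be told apart.

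**Figure D5:**
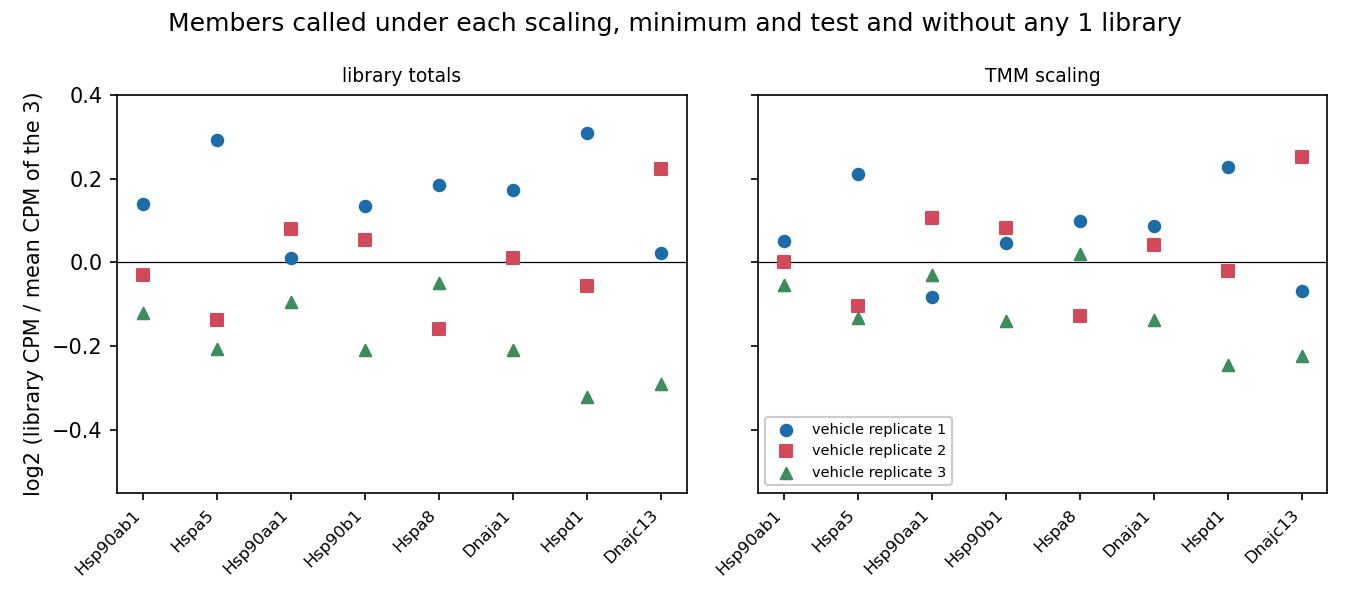
Log2 of each vehicle library's level over the mean of the 3 libraries for the 8 members called under each scaling, read minimum and test and without any 1 library, with library totals on the left and TMM scaling on the right. Replicate 1 lies highest for Hspa5, Hspd1, Hsp90ab1, Hspa8 and Dnaja1 in both panels. Hsp90aa1 has its lowest library in replicate 3 on the left and in replicate 1 on the right.

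Other members spread as widely but lost their call when 1 library was left out. Among members of at least 20 CPM the largest CVs were those of Hspbp1 (24.1%), Cct4 (22.8%), Hspd1 (22.2%), Hspa5 (19.7%) and Dnajb2 (19.5%). Cct4 was not called without replicate 1 (adjusted p = 0.774, exact binomial test) nor Hspbp1 without replicate 2 (0.136), nor Dnajb2 without replicate 1 (0.148) or replicate 2 (0.0940). The heat-inducible genes Hspa1b, Hspa1a, Hsph1 and Bag3 were called with all libraries. Hspa1b was not called without replicate 1 (0.958), Hspa1a not without replicate 2 (1), Hsph1 not without replicate 3 (0.327), and Bag3 not without replicate 2 (0.275) or replicate 3 (0.0531). Dnajb1, Dnajc7 and Dnajc3 were not called with library totals (exact binomial test, adjusted p = 1, 0.614 and 1), and with TMM scaling the values were 0.0948, 0.0596 and 0.0551.

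The counts by list are to be read against the 56.5% of all entries called with library totals, 52.0% with TMM scaling, and 34.8%, 39.0% and 38.5% without replicates 1, 2 and 3. Of the heat-inducible members 5 of 7 were called, and 5 also with TMM scaling. Without replicates 1, 2 and 3, in turn, 4, 3 and 3 of the 6 then tested were called. Of the 11 constitutive cytosolic members 9 were called, 6 with TMM scaling and 7 without any 1 library. Of the ER-stress-inducible members 5 of 6 were called, 5 also with TMM scaling, and 4, 3 and 3 without replicates 1, 2 and 3. All 7 tested CCT subunits were called, 5 with TMM scaling, and 4, 6 and 3 without replicates 1, 2 and 3. For mitochondrial members the count was 5 of 9, 5 also with TMM scaling, and 5, 2 and 3 without replicates 1, 2 and 3.

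Genes of the same pathways outside the symbol rule were read from lists set beside the members. Their counts too are to be read against 56.5% of all entries called, 52.0% with TMM scaling and 34.8%, 39.0% and 38.5% without replicates 1, 2 and 3. Of 12 HSP90 cochaperone genes 8 were called, but 3 with TMM scaling and 2, 5 and 5 without replicates 1, 2 and 3. Ptges3, encoding the HSP90 cochaperone p23, had 130, 115 and 117 CPM in replicates 1, 2 and 3, the HSP70-binding St13 119, 94.9 and 99.2 CPM and the kinase adaptor Cdc37 112, 94.5 and 101 CPM. Of 15 ER folding genes 12 were called, 11 with TMM scaling and 6, 10 and 9 without replicates 1, 2 and 3. The lectin chaperone gene Calr had 574, 446 and 521 CPM, Canx, its membrane-bound relative, 315, 274 and 254 CPM and the disulfide isomerase gene Pdia3 219, 161 and 193 CPM. The 15 genes together held 0.185%, 0.149% and 0.155% of reads (0.174%, 0.151% and 0.162% with TMM scaling), highest in replicate 1 like Hspa5. The list of ER stress sensors and factors had 4 of 7 called, 4 with TMM scaling and 3, 3 and 1 without replicates 1, 2 and 3. Atf4 had 454, 453 and 461 CPM, Herpud1 177, 173 and 142 CPM and Ddit3 56.3, 45.7 and 52.5 CPM. Prefoldin and CCT partner genes had 5 of 8 called, 2 with TMM scaling and 2, 4 and 2 without replicates 1, 2 and 3. Besides Tcp1, the most abundant were Pfdn5 and Pfdn1, at 101 ± 8.37 and 46.1 ± 1.65 CPM (SD, n = 3). Of 10 mitochondrial folding and protease genes 5 were called, 4 with TMM scaling and 1, 2 and 2 without replicates 1, 2 and 3. Htra2 averaged 39.9 ± 5.33, Grpel1 39.6 ± 1.75 and Lonp1 26.1 ± 3.80 CPM. The collagen chaperone gene Serpinh1 averaged 2.19 ± 1.14 CPM, the crystallin gene Cryab 0.692 ± 0.602 CPM, and Cryaa had 0 reads.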

How the data were processed

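For each library the authors deposited gene symbols with a log2 value, which from the values is log2(x + 1) of reads scaled to about 1000000 per library. Per the labels' protocols, 500 ng of Trizol-extracted total RNA entered a Lexogen QuantSeq kit. Bowtie2, bedtools and mm10 are named in the submitters' processing notes, and the sources used here give no versions, annotation, strand setting or rule of normalization. Whole reads were recovered from the steps of the values (100% whole within a relative 1e-06), and the divisor behind the authors' values was 1.12, 1.03 and 1.01 times the total of these reads (replicates 1, 2 and 3).

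Tests ran on the recovered reads because the deposited unit was log2. Genes with a total of 30 or more reads were tested, each library being set against the other two by an exact two-sided binomial test, with the smallest p multiplied by 3 and Benjamini-Hochberg adjustment over all tested genes at 0.05. A fit that leaves out a library applies the minimum of 30 to the reads left. Ratios used log2(CPM + 0.5) within a library and an exact sign-flip permutation. TMM factors trimmed 30% of ratios and 5% of intensities. Gene positions are from GENCODE M21, in which all 93 symbols matched, and promoter windows and their starts from RefSeq. Python 3.11.15, NumPy 2.4.6, SciPy 1.17.1 and pandas 2.3.3 were used.

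The members, lists, compartments and pairs were chosen with earlier results of these data known, the roles from general knowledge. Named genes were the members of at least 20 CPM, the pairs, the Hsf and Bag genes, the 5 largest CVs among called members of at least 20 CPM, members with 0 reads, the 2 most abundant of each family and compartment and the 3 most abundant of each other list. Other low members named (Dnajb11, Dnajb9, Dnaja3, Dnajc19, Dnajc15, Dnajc11, Hspa13, Hspa2, Hspb7, Hspb8, Hspb11, Dnajb3, Dnajb13, Cct6b) and the 8 members that kept their call were chosen after their values were seen.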

Additional observations from a re-analysis of the deposited data

How the results depend on the processing

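No paired analysis was possible because all 3 libraries belong to 1 group. Of the 54 called members, 46 lost the call under at least 1 other scaling, read minimum or test or without 1 library. The other 8 lost it under none of these (14.8% of called members, against 13.2% of all called entries). In addition 1 member not called, Dnajc19, gained a call under 5 alternatives. TMM and median-of-ratios scaling left 45 and 44 members called (52.0% and 51.8% of all entries), and scaling without the 20 most abundant entries 45 (52.2%). No read minimum gave 56 (45.8% of all entries), a minimum of 100 reads 50 (60.6%) and a chi-square test 55 (58.9%). Leaving out a library gave 32 to 36 members (34.8% to 39.0% of all entries). Asking also for a 1.5-fold range, chosen after seeing the data, left 20 (28.2% of all entries). Of the 8 members it left only Hspd1 (1.35% of tested members, against 4.55% of all tested entries). Of the 53 tested genes outside the rule 35 were called, 24 with TMM, 23 with median-of-ratios scaling, 14 to 24 with a library left out and 7 with the 1.5-fold range. The cause was not tested.

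The summed level of 0.751% became 1.35% with totals that leave out the 20 most abundant entries and 0.578% without Hsp90ab1, both by construction, and it ranged from 0.714% to 0.782% with a library left out. No pair ratio changed sign. With a pseudocount of 5 CPM the log2 ratio became -4.53 for Hspa1b, -4.53 for Hspa1a and -2.13 for Bag3, all low genes. The ratio of the lists, -1.80, was -4.03 with the median member and -3.37 without the most abundant member of each list, which is the HSP90 pair, and ranged from -1.85 to -1.76 with a library left out. Without the most abundant member of each compartment the shares were 76.3% for the cytosol and nucleus and 18.3% for the ER. By median member they were 25.8%, 47.5% for the ER and 26.1% for the mitochondrion. The median for the cytosol and nucleus includes all testis- and muscle-enriched members, most of them low. Depth limits the low genes: the counts of Hspb1, Hsf1, Hspa1a and Hspa1b did not pass 86 reads in any library.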
